A study of Mus musculus with 15 samples.

Results

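The cytochrome P450 genes of the mouse were followed through RNA-Seq of the podocyte fraction of young and aged kidneys. Members were the protein-coding genes whose symbol begins with Cyp and a digit, and 100 of the 46078 genes in the count table, or of its 21596 protein-coding genes, met that rule. All mice were male C57BL/6J, and the fraction was taken from digested kidney cortex by magnetic sorting with antibodies to nephrin, the slit diaphragm protein of the podocyte. Young mice were 4 months old and were not injected. Aged IgG2a-injected mice were 21 months old and received the isotype control antibody 2A3, and aged aPD1ab-injected mice were 21 months old and received the anti–PD-1 antibody RMP1-14, both at 12 mg/kg intraperitoneally once a week for 8 weeks, although the titles of the aPD1ab samples give 47 days. The labels hold 5 mice per group, and 5 young, 4 aged IgG2a and 4 aged aPD1ab libraries could be tied to a group. Because the young mice had no injection, age and injection cannot be told apart in comparisons with them.

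Cytochromes P450 are heme enzymes that insert an oxygen atom into lipids, sterols, vitamins and foreign compounds, using electrons passed on by cytochrome P450 reductase in the endoplasmic reticulum or by ferredoxin in mitochondria. In the kidney the proximal tubule is the main site of several of them. CYP4A enzymes turn arachidonic acid into the vasoactive lipid 20-HETE, CYP2C and CYP2J enzymes turn it into epoxides, and CYP27B1 and CYP24A1 make and break down active vitamin D. Podocytes are not known as a main site of these enzymes, so markers of the other cell types are given beside the results.

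The feature that the family shares in its sequence is the loop that holds the heme, in which a cysteine binds the iron. The pattern of phenylalanine, 2 residues of any kind, glycine, 3 of any kind, cysteine, 1 of any kind and glycine was found in the translated coding sequence (GENCODE M21) of 95 of the 100 members and of 42 of 21801 other genes, or 0.193%. The 5 members without it in that form were Cyp20a1, Cyp3a59, Cyp2s1, Cyp2b10 and Cyp8b1. To show how far members of different roles keep these letters, the 30 coding bases of the pattern are given for 8 of the genes described below, with the codon of the cysteine in capitals.
Cyp4b1: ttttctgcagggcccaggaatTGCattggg
Cyp2e1: ttttctgcaggaaagcgcgtgTGTgttgga
Cyp2j5: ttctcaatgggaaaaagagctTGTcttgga
Cyp2d26: ttctcagcaggccgcagatcaTGCctgggg
Cyp24a1: tttggcgtcgggaagaggatgTGCatcggg
Cyp27a1: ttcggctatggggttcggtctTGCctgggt
Cyp7b1: tttggactcggaacaagcaaaTGTccaggg
Cyp26b1: tttggcggtggcgtgcggaccTGCctgggc

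Library totals ran from 19912969 to 32717100 counts, and levels are given as counts per 1000000 (CPM) after scaling by the trimmed mean of M values. Of the 100 members, 20 were listed at 0 in all 13 libraries, 34 never exceeded 3 counts, 66 exceeded 3 counts in at least 1 library, and 43 did so in every library. A count of 0 allows a level of up to 3 counts in a library, which is 0.0843 to 0.207 CPM and covers counting error only. The 50 members that passed the filter on low counts over the 3 groups are described below. The genes at 0 included Cyp7a1, the rate-limiting enzyme of bile acid synthesis in liver, the adrenal and gonadal genes Cyp11b1, Cyp21a1 and Cyp19a1, and 7 CYP2C genes. The p-values set the difference between groups against the spread between the libraries within them.

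The sorted fraction held RNA of several cell types. The summed level of 8 podocyte markers was 871.3 to 1412 CPM in young, 522.1 to 722 CPM in aged IgG2a and 266.4 to 856.8 CPM in aged aPD1ab mice, and that of 12 proximal tubule markers was higher in each of the 13 libraries, at 10000 to 15000 CPM in young and 7461 to 21150 CPM in aged aPD1ab mice. In the aged IgG2a group the proximal tubule sum was 7233 CPM in replicate 1 and 1374, 2212 and 1750 CPM in replicates 2, 3 and 4, while 8 macrophage markers summed to 2992 CPM in replicate 1 and 9018, 8588 and 7511 CPM in the others, against 1990 to 3655 CPM in young mice. Aged IgG2a replicate 1 thus lay apart from its group. Most counts of called members and several single genes that rest on this group are given with and without it. Among the other marker lists, aged IgG2a against young mice had 0 of 4 thick ascending limb and distal tubule markers called, 1 of 4 collecting duct and 1 of 4 B, plasma and T cell markers higher, and 4 of 6 endothelial, 2 of 4 mesangial and smooth muscle and 1 of 2 tested adrenal cortex markers lower. Of all genes tested in this comparison, 9.05% were called higher and 8.38% lower. The adrenal genes Nr5a1 and Hsd3b1 were at or near 0.

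Per kilobase of exon, Cyp4b1 stood first among the members with a mean level over all libraries of 469 CPM per kb, followed by Cyp2e1 at 205 and Cyp2j5 at 169 CPM per kb. Cyp2a4, Cyp27a1, Cyp2a5, Cyp2j11 and Cyp2d12 came next, at 66.1, 44.9, 41.7, 35.7 and 34.3 CPM per kb. The 3 genes with the most reads, Cyp4b1, Cyp2e1 and Cyp2j5, made up 63.0% to 68.7% of all Cyp CPM in young mice, 60.0% in aged IgG2a replicate 1, 32.2% to 37.5% in aged IgG2a replicates 2 to 4 and 40.4% to 56.2% in aged aPD1ab mice. The summed Cyp level was 4216 ± 627.5 CPM (SD, n = 5) in young, 1650 ± 1041 CPM (n = 4) in aged IgG2a and 3655 ± 1998 CPM (n = 4) in aged aPD1ab mice.

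**Figure D1:**
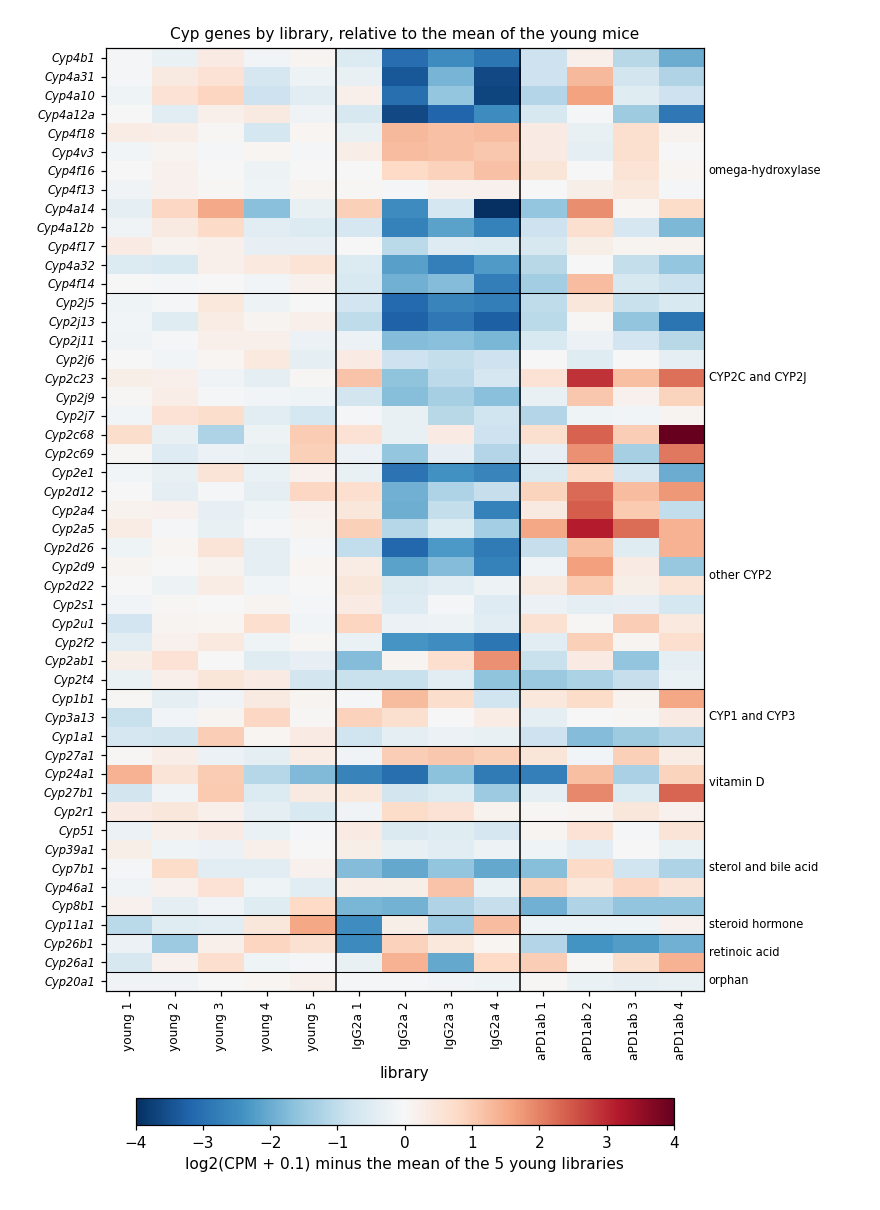
Each row is 1 of the 50 Cyp genes that passed the filter, grouped by role, and each column 1 library. Colour gives log2(CPM + 0.1) minus the mean of the 5 young libraries, with the scale ending at 4 in either direction. Most rows of the omega-hydroxylase, CYP2C and CYP2J and other CYP2 groups are blue in aged IgG2a replicates 2 to 4 and less so, or red, in replicate 1 and in aPD1ab replicate 2.

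The comparison of aged IgG2a-injected with young mice shows how the family stands in the aged fraction without PD-1 blockade. Of 48 members tested, 13 fell (27.1%) and 3 rose (6.25%), against 8.38% and 9.05% of all 15953 genes tested, by the quasi-likelihood test of edgeR with an adjusted p under 0.05. The median log2 fold change was -0.52 over the members and 0.04 over all genes. Without aged IgG2a replicate 1, 25 of 48 members fell (52.1%) and 4 rose (8.33%), against 23.5% and 22.1% of all genes. The groups did not overlap for 11 members that were lower and 1 that was higher in aged IgG2a mice, against 9.73% and 4.75% of all genes. Without replicate 1 these numbers were 25 and 4, against 27.4% and 19.4% of all genes. Without IgG2a replicate 2, 3 or 4 the number of members that fell was 3, 2 or 5, against 2.37%, 1.8% or 3.25% of all genes, and without 1 of the young libraries it was 4 to 8, against 2.94% to 4.82%. The calls over all genes thus dropped with those of the members. Cyp4v3, Cyp2j9 and Cyp7b1 were called with each library left out in turn. Cyp4b1, Cyp2j11, Cyp4a12a, Cyp4a32, Cyp4f14 and Cyp27a1 were each called in 1 of these 9 fits, the fit without IgG2a replicate 1. In bulk samples fewer cells of a type and less RNA per cell cannot be told apart, and all 12 proximal tubule markers fell in the same comparison, with a median log2 fold change of -1.92. The part of the tubule content in these results was not tested beyond the ratios given further on.

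The comparison of aged aPD1ab-injected with aged IgG2a-injected mice asks what the antibody treatment did at the same age. With all 4 IgG2a libraries, edgeR called 0 of 46 members in either direction, as it called 0.0% of all 15530 genes. The lowest adjusted p of a member was 0.1092, and at an unadjusted p under 0.05 there were 14 members higher and 3 lower, against 15.7% and 12.2% of all genes. Other fits of the same libraries did call members. DESeq2 called 11 higher and 2 lower of 43, against 8.61% and 5.59% of all genes. The single fit of the 3 groups called 11 and 2 of 50, against 11.4% and 6.14%, and limma voom with sample quality weights called 17 and 6 of 46, against 20.9% and 18.9%. Without aged IgG2a replicate 1, edgeR called 23 members higher (50%) and 4 lower (8.7%), against 17.1% and 13.2% of all genes. The groups did not overlap for 5 members that were higher and 1 that was lower in aPD1ab mice, against 7.24% and 4.73% of all genes, and without replicate 1 for 21 and 5, against 24.8% and 18.5%. In these same libraries without replicate 1, 11 of 12 proximal tubule markers rose.

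Aged aPD1ab-injected mice were also compared with young mice. Of 50 members tested, 5 rose and 5 fell (10% each), against 12.4% and 9.97% of all 15986 genes, so the share called was close to that of the table as a whole. The groups did not overlap for 3 members that were higher and 4 that were lower, against 11.3% and 10.6% of all genes. No proximal tubule marker was called in this comparison, and the median log2 fold change was 0.06 over the members and 0.02 over all genes. Without aPD1ab replicate 2, 13 of 50 members fell, against 10.5% of all genes, and without aPD1ab replicate 4 there were 2, against 6.32%. The 3 comparisons share libraries pair by pair, so they are not independent of each other. Counts that moved with the method are set beside their background here. In aged IgG2a against young mice, 1 member rose by over 2-fold, against 3.89% of all genes, voom called 25 members lower, against 22.2%, and without the filter on low counts 8 members fell, against 4.09%. In aPD1ab against young mice, 3 members fell in the single fit, against 8.64%, 8 under voom, against 11.5%, and 3 by over 2-fold, against 2.69%.

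**Figure D2:**
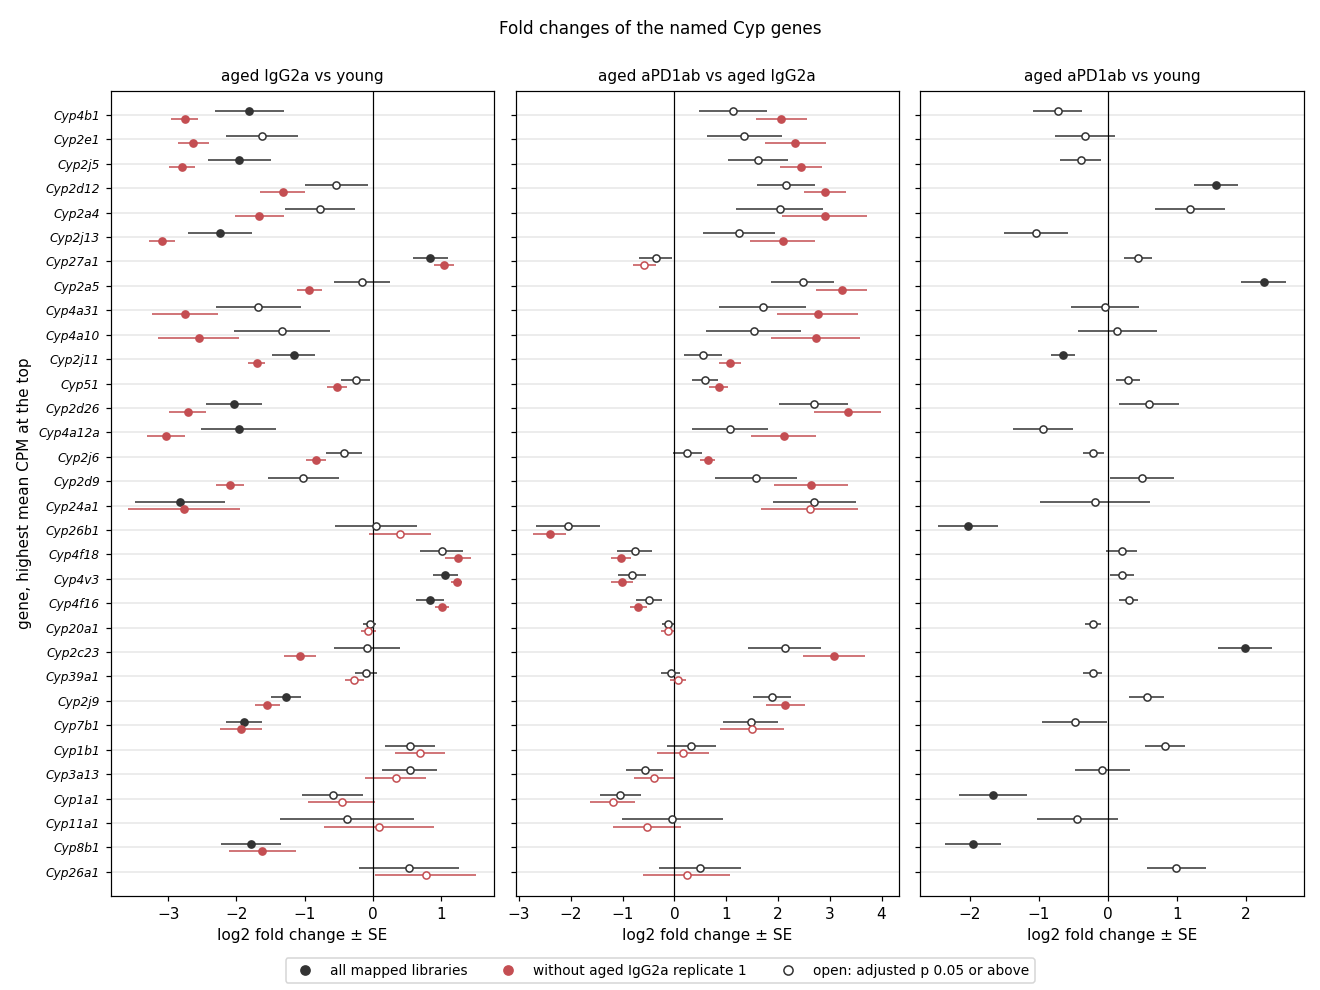
Log2 fold changes (x axis, with SE) of the 32 named Cyp genes (y axis, highest mean CPM at the top) in the 3 comparisons, with all mapped libraries in black and without aged IgG2a replicate 1 in red, where filled points have an adjusted p under 0.05. In the middle panel every black point is open, and most filled red points lie above 0.

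Omega-hydroxylases of the CYP4 family add a hydroxyl group to the end of a fatty acid chain, and 13 of their 20 genes passed the filter. Of these, 5 fell and 2 rose in aged IgG2a against young mice, where 8.38% of all genes fell and 9.05% rose. Without IgG2a replicate 1, Cyp4a10, Cyp4a31 and Cyp4f17 fell as well and Cyp4f18 rose as well, against 23.5% and 22.1% of all genes. Cyp4b1 (ENSMUSG00000028713, mm10 chr4:115624725-115647723, minus strand), which acts on fatty acids and foreign compounds, was at 1529, 1347, 1991, 1494 and 1725 CPM in young mice. It was at 1103, 192, 282.2 and 215.8 CPM in aged IgG2a mice and at 903.3, 1826, 750.3 and 400.6 CPM in aged aPD1ab mice. Every aged IgG2a library lay below every young library, with replicate 1 nearest to them. Cyp4b1 was higher in every aPD1ab library than in all IgG2a libraries other than replicate 1. In the highest aPD1ab library, at 1826 CPM, it lay within the young range, and in the remaining aPD1ab libraries it lay below IgG2a replicate 1. Its log2 fold change was -1.81 ± 0.50 (SE; adjusted p = 0.0374) in IgG2a against young mice and -2.76 ± 0.19 (adjusted p = 5.591e-06) without replicate 1. In aPD1ab against IgG2a mice it was 1.13 ± 0.66 (adjusted p = 0.28) and, without replicate 1, 2.06 ± 0.50 (adjusted p = 0.019).

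The CYP4A genes include the makers of 20-HETE. Cyp4a12a was at 59.52 to 104.8 CPM in young mice, at 51.64, 6.498, 8.936 and 14.09 CPM in aged IgG2a mice and at 52.4, 76.81, 29.93 and 11.07 CPM in aged aPD1ab mice. The IgG2a libraries lay below the young ones without overlap, and the gene fell by 1.97 on the log2 scale (adjusted p = 0.0367). Its neighbour Cyp4a12b fell by 1.81 (adjusted p = 0.0301) and Cyp4a32 by 1.74 (adjusted p = 0.0403). Cyp4a10, a target of the fatty acid receptor PPARα, spread over 43.99 to 141.7 CPM in young mice and was at 89.87, 9.563, 26.59 and 6.079 CPM in aged IgG2a mice. Its value in aPD1ab mice was 240.8 CPM in replicate 2 and 34.44, 56.06 and 43.82 CPM in replicates 1, 3 and 4. All 3 groups overlapped for this gene, and its log2 fold change of -1.33 ± 0.71 between IgG2a and young mice did not pass the test (adjusted p = 0.202). Cyp4a31 was at 57.27 to 137.6 CPM in young mice and at 74.55, 8.664, 24.82 and 7.322 CPM in aged IgG2a mice, with a log2 fold change of -1.68 ± 0.63 (adjusted p = 0.0864). The near-identical copies Cyp4a12a and Cyp4a12b share stretches of identical coding sequence, as described below, so the split of reads between them is uncertain.

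Cyp4v3 and Cyp4f16 were the CYP4 genes that rose in aged IgG2a against young mice. Cyp4v3, the mouse counterpart of the fatty acid hydroxylase gene CYP4V2, was at 18.1, 21.39, 19.15, 20.52 and 19.17 CPM in young mice. It was at 23.73, 46.1, 44.84 and 42 CPM in aged IgG2a and at 24.68, 15.01, 30.78 and 19.91 CPM in aged aPD1ab mice. Each IgG2a library exceeded each young one, and the gene rose by a log2 fold change of 1.06 ± 0.19 (adjusted p = 0.0107). Cyp4f16 rose by 0.84 ± 0.21 (adjusted p = 0.0271). Cyp4f18, which inactivates the inflammatory lipid leukotriene B4 in myeloid cells, was at 12.61 to 25.43 CPM in young mice and at 16.81, 50.18, 46.24 and 48.21 CPM in aged IgG2a mice. IgG2a replicate 1 lay within the young range and the other IgG2a libraries above it, and the log2 fold change of 1.01 ± 0.32 had an adjusted p of 0.0529, or 1.25 ± 0.19 with 0.000552 without replicate 1. Against IgG2a replicates 2 to 4, the aPD1ab mice had lower Cyp4v3 (-1.01 ± 0.21, adjusted p = 0.0123), Cyp4f18 (-1.03 ± 0.19, adjusted p = 0.00866) and Cyp4f16 (-0.69 ± 0.16, adjusted p = 0.0161). By group mean, the macrophage marker sum stood in the same order. Of its 8 genes, 7 were higher in aged IgG2a than in young mice, and the part of the macrophage content in these values was not tested. Cyp4f13 was at 20.96 to 31.52 CPM over all 13 libraries, and was not called in any of the 3 comparisons. Cyp4f14 fell by 1.80 (adjusted p = 0.048) at under 1 CPM in young mice.

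**Figure D3:**
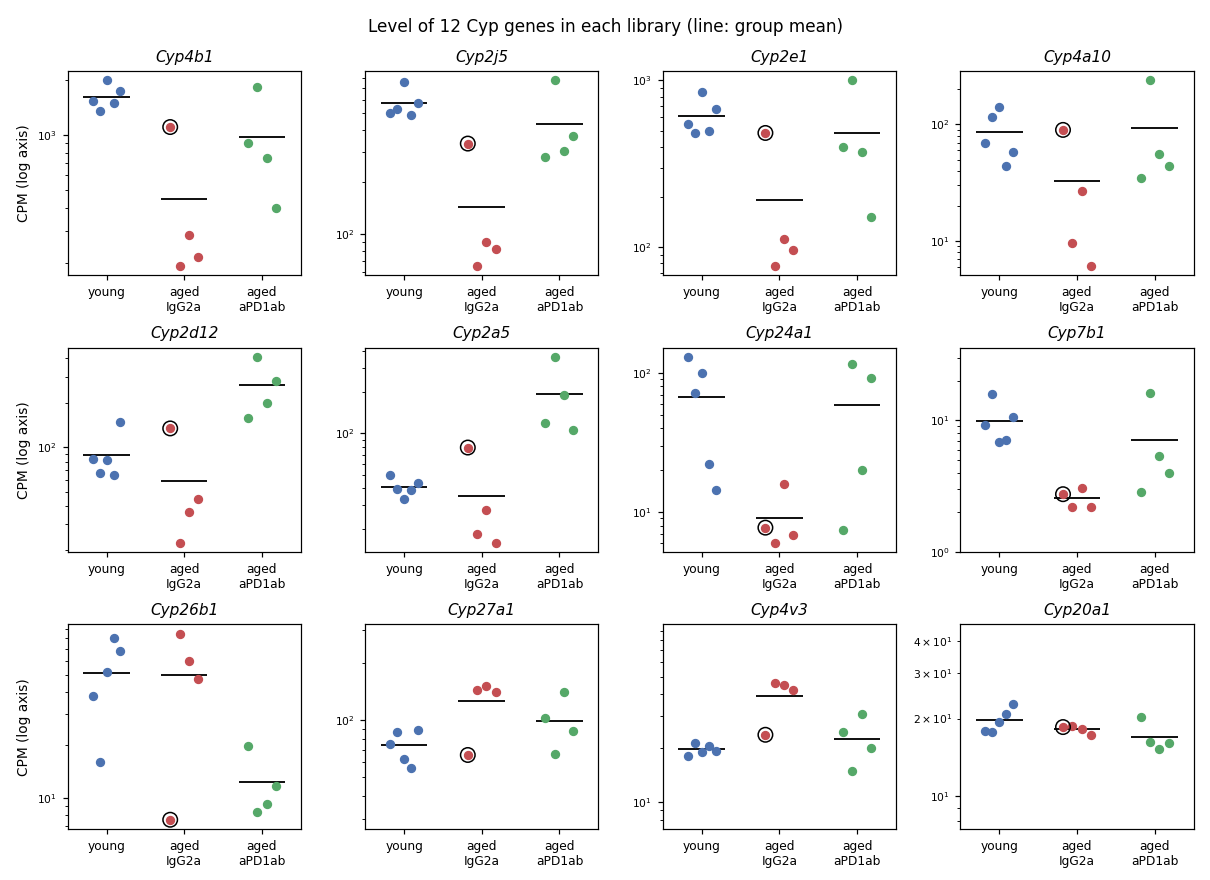
CPM of 12 Cyp genes (log axis) in each library of the young, aged IgG2a and aged aPD1ab groups, with a line at the group mean and a ring around aged IgG2a replicate 1. For Cyp4b1, Cyp2j5 and Cyp2e1 the ringed library lies near the young mice and the other IgG2a libraries below, and for Cyp27a1 and Cyp4v3 the ringed library is the lowest of its group.

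The CYP2J and CYP2C genes encode epoxygenases of arachidonic acid, and 9 of 23 passed the filter. Of the 7 tested in aged IgG2a against young mice, 4 fell and 0 rose. Of all genes, 8.38% fell and 9.05% rose. CYP2J genes made up 6 of the 7 tested and all 4 that fell, and Cyp2c23 was the only CYP2C gene tested. Without IgG2a replicate 1, Cyp2j6 and Cyp2c23 fell as well, where 23.5% of all genes fell. Cyp2j5, the main epoxygenase gene of its branch in mouse kidney, was at 500.8, 529.7, 761.1, 488.2 and 572.8 CPM in young mice. It was at 333.5, 65.06, 89.74 and 82.13 CPM in aged IgG2a and at 279, 778.1, 301.7 and 368 CPM in aged aPD1ab mice. The young and IgG2a libraries did not overlap, and 3 of the 4 aPD1ab libraries lay below the young range with replicate 2 above it. The log2 fold change in IgG2a against young mice was -1.96 ± 0.46 (adjusted p = 0.0244) and, without replicate 1, -2.80 ± 0.19 (adjusted p = 5.47e-06). Cyp2j13, at 131.4 to 222.8 CPM in young mice, was at 89.34, 19.13, 24.82 and 18.86 CPM in aged IgG2a mice and fell by 2.24 (adjusted p = 0.0178). Cyp2j11 fell by 1.16 (adjusted p = 0.0353) and was also lower in aPD1ab than in young mice, with a log2 fold change of -0.65 ± 0.17 (adjusted p = 0.0241).

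Cyp2j9 and Cyp2c23 are given with their values in all 3 groups, and Cyp2c68 with those of aPD1ab mice. Cyp2j9 was at 6.824 to 9.366 CPM in young, 4.54, 2.288, 3.015 and 2.349 CPM in aged IgG2a and 6.2, 16.27, 8.729 and 14.21 CPM in aged aPD1ab mice. The aPD1ab and IgG2a libraries did not overlap even with IgG2a replicate 1 included. Its fall of 1.27 ± 0.22 in IgG2a against young mice (adjusted p = 0.0096) was called with every single library left out in turn. Cyp2c23, also known as Cyp2c44, is an arachidonic acid epoxygenase of the kidney. It was at 6.237 to 9.528 CPM in young mice, at 17.9, 2.534, 3.822 and 4.973 CPM in aged IgG2a and at 12, 59.89, 18.42 and 37.02 CPM in aged aPD1ab mice. All aPD1ab libraries lay above the young ones, and IgG2a replicate 1 lay above the young and within the aPD1ab range. The gene rose by 1.99 ± 0.39 in aPD1ab against young mice (adjusted p = 0.00817), while in IgG2a against young mice the log2 fold change was -0.09 ± 0.48 (adjusted p = 0.913). Cyp2c68 also rose against young mice, by 2.83 (adjusted p = 0.0293), with 7.218 CPM in aPD1ab replicate 4 and 0.56 to 2.034 CPM in the other aPD1ab libraries. This call held in 4 of 9 fits with 1 library left out, and was lost without aPD1ab replicate 4. Stretches of 100 coding bases that other members share made up 22.9% of those of Cyp2c68, so its reads may not all be its own.

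The remaining CYP2 genes act on foreign compounds and steroids, and 12 of 25 passed the filter. Cyp2d26 alone among them fell in aged IgG2a against young mice, where 8.38% of all genes fell. Without IgG2a replicate 1, Cyp2e1, Cyp2d9, Cyp2f2, Cyp2a4, Cyp2a5 and Cyp2d12 fell as well, where 23.5% of all genes fell. Cyp2e1, which oxidizes ethanol and acetone, was at 550.1, 481.5, 850.5, 499.8 and 669.3 CPM in young mice. It was at 483.9, 77.11, 111.3 and 96.43 CPM in aged IgG2a and at 397.5, 1004, 373.1 and 151.1 CPM in aged aPD1ab mice. Replicate 1 of IgG2a lay within the young range, and the log2 fold change of -1.62 ± 0.52 had an adjusted p of 0.0572, or -2.63 ± 0.22 with 1.28e-05 without that library. Cyp2d26 was at 42.82 to 80.9 CPM in young, 28.33, 6.212, 11.3 and 7.806 CPM in aged IgG2a and 29.84, 127.9, 39.68 and 147 CPM in aged aPD1ab mice. The young and IgG2a libraries were separate, as were the IgG2a and aPD1ab libraries by a narrow margin, and the fall of 2.04 ± 0.41 against young mice had an adjusted p of 0.0165.

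Cyp2d12 and Cyp2a5 were higher in aged aPD1ab mice than in both other groups. Cyp2d12 was at 82.97, 66.66, 82.29, 64.52 and 149 CPM in young mice, at 134, 22.48, 36.28 and 44.62 CPM in aged IgG2a and at 158.3, 408.7, 200 and 279.9 CPM in aged aPD1ab mice. Cyp2a5, the coumarin 7-hydroxylase gene (mm10 chr7:26835305-26843548, plus strand), was at 50.08, 39.14, 33.31, 38.43 and 43.59 CPM in young mice, at 78.92, 18.43, 27.45 and 15.89 CPM in aged IgG2a and at 118.8, 362, 191 and 106.7 CPM in aged aPD1ab mice. For both genes the lowest aPD1ab library exceeded the highest of all other libraries. In aPD1ab against young mice Cyp2a5 rose by 2.26 ± 0.33 (adjusted p = 0.0037) and Cyp2d12 by 1.57 ± 0.31 (adjusted p = 0.00819), and both calls held with each library left out in turn. In aPD1ab against IgG2a mice the log2 fold changes were 2.48 ± 0.61 and 2.15 ± 0.56 (adjusted p = 0.1092 for each), and without IgG2a replicate 1 they were 3.23 ± 0.50 (adjusted p = 0.00752) and 2.92 ± 0.40 (adjusted p = 0.00668). Cyp2d22 rose by 0.59 (adjusted p = 0.0318) and Cyp2s1 fell by 0.41 (adjusted p = 0.0243) against young mice.

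Cyp2a4, the testosterone 15α-hydroxylase gene, is a near copy of Cyp2a5 that differs from it at 23 of 1482 coding bases, an identity of 98.45%. A stretch of 120 coding bases (from position 550, GENCODE M21) is printed because reads can be told apart only at its 6 differing bases, given in capitals.
Cyp2a4: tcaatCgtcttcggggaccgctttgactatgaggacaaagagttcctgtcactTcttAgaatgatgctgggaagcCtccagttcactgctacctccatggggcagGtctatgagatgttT
Cyp2a5: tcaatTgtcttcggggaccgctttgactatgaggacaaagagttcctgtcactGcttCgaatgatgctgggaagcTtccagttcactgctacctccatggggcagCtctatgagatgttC
Windows of 100 bases identical in both genes made up 13.2% of the windows of coding sequence, against 41.3% for Cyp4a12a and Cyp4a12b and 7.56% for Cyp4a10 and Cyp4a31. How reads that fit both copies were counted is not given in the sources used here. Cyp2a4 was at 100.6, 101.3, 72.49, 80.88 and 101 CPM in young mice, at 123, 23.05, 46.24 and 13.75 CPM in aged IgG2a and at 115.9, 482.1, 186.3 and 45.98 CPM in aged aPD1ab mice. The ratio of Cyp2a4 to Cyp2a5 in CPM per kb was 2.4, 3.09, 2.6, 2.51 and 2.76 in young mice, 1.86, 1.49, 2.01 and 1.03 in aged IgG2a and 1.16, 1.59, 1.16 and 0.514 in aged aPD1ab mice. Every aged library, IgG2a replicate 1 included, had a lower ratio than every young library. The pair was chosen after its values were seen, and the mean log2 ratio differed from young mice by -0.78 in IgG2a and by -1.38 in aPD1ab mice, each with p = 0.01587 in a two-sided exact permutation test, the smallest that 5 against 4 libraries allow. Adjusted over the 9 ratio tests made on 3 pairs, p was 0.07143, which missed the threshold. Between the aged groups the difference of -0.59 had p = 0.2 in the same exact test, where the smallest possible p is 0.02857.

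**Figure D4:**
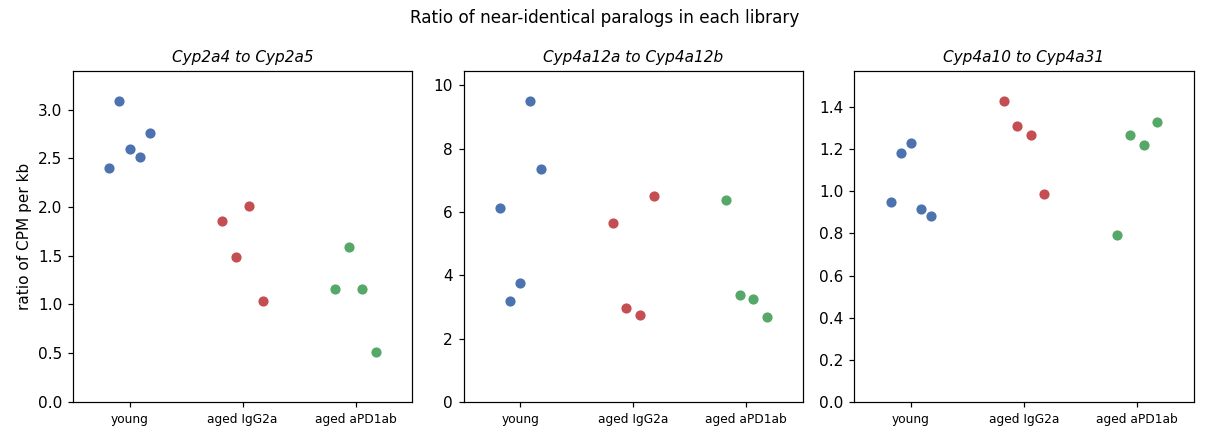
Ratio of CPM per kb of 3 near-identical gene pairs (y axis, from 0) in each library of the 3 groups. For Cyp2a4 to Cyp2a5 the 5 young libraries lie at 2.4 to 3.09 and all 8 aged libraries at 2.01 or below, and for the other pairs the groups overlap.

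The CYP1 and CYP3 genes are known as inducible enzymes of foreign compounds, and 3 of 12 passed the filter. Cyp1a1, a target of the aryl hydrocarbon receptor, was at 0.4557, 0.4271, 1.666, 0.8383 and 1.007 CPM in young mice, at 0.4101 to 0.646 CPM in aged IgG2a and at 0.4, 0.1627, 0.2267 and 0.2809 CPM in aged aPD1ab mice. All aPD1ab libraries lay below all others, at levels of a few counts, and the gene fell by 1.67 ± 0.49 against young mice (adjusted p = 0.0347). Cyp1b1, at 2.141 to 11.18 CPM over all libraries, and Cyp3a13, at 0.2485 to 1.113 CPM, overlapped between all groups and were not called by edgeR. DESeq2 and voom called Cyp1b1 higher in aPD1ab than in young mice, with log2 fold changes of 0.82 (adjusted p = 0.03147) and 1.07 (adjusted p = 0.01973).

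Of the vitamin D genes, all 4 passed the filter. Cyp24a1 (ENSMUSG00000038567, mm10 chr2:170482708-170497145, minus strand), the 24-hydroxylase that inactivates vitamin D, spread over 130.5, 71.39, 99.46, 22.33 and 14.47 CPM in young mice. It was at 7.733, 6.007, 15.88 and 6.838 CPM in aged IgG2a and at 7.4, 115.1, 20.24 and 92.29 CPM in aged aPD1ab mice. The lowest young library lay below the highest IgG2a library, and the aPD1ab group fell into low and high libraries. The gene fell by 2.83 ± 0.66 in IgG2a against young mice (adjusted p = 0.0238), and by 2.77 ± 0.82 without replicate 1 (adjusted p = 0.0249), so its size was much the same with and without that library. In aPD1ab against IgG2a mice the log2 fold change of 2.70 ± 0.80 had an adjusted p of 0.1099 by edgeR, and DESeq2 called it (adjusted p = 0.005439). Cyp27b1, the 1α-hydroxylase that makes active vitamin D, was at 0.8289 to 5.155 CPM in young and IgG2a mice and at 1.88, 9.52, 1.644 and 12.7 CPM in aPD1ab mice. The same aPD1ab replicates 2 and 4 were high for both genes, and edgeR called neither in that group, while DESeq2 also called Cyp27b1 higher than in IgG2a mice (log2 fold change 1.84, adjusted p = 0.04774). Cyp27a1, the sterol 27-hydroxylase that can also hydroxylate vitamin D, was at 56.13 to 88.98 CPM in young mice, at 65.62, 144.8, 152.3 and 140.2 CPM in aged IgG2a and at 102.4, 66.56, 140.3 and 88.22 CPM in aged aPD1ab mice. IgG2a replicates 2 to 4 lay above all young libraries and replicate 1 within them, and the gene rose by 0.84 ± 0.25 (adjusted p = 0.0455) in IgG2a against young mice. This call was lost with median-of-ratios size factors, without the filter on low counts and in the single fit of the 3 groups. With 1 library left out it was called in 1 of 9 fits, the fit without IgG2a replicate 1. By group mean, Cyp27a1 stood in the order of the macrophage marker sum. Single libraries departed from it, as aPD1ab replicate 3, with a macrophage sum of 5163 CPM, was level with IgG2a replicate 4, with 7511 CPM. The part of the macrophage content in Cyp27a1 was not tested. The 25-hydroxylase gene Cyp2r1 had levels of 0.895 to 2.452 CPM and was not called.

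Of the sterol and bile acid genes, 5 of 6 passed the filter. Cyp7b1, the oxysterol 7α-hydroxylase gene (mm10 chr3:18071950-18243338, minus strand), was at 9.238, 15.74, 6.861, 7.075 and 10.7 CPM in young mice. It was at 2.754, 2.207, 3.068 and 2.21 CPM in aged IgG2a and at 2.84, 16.15, 5.385 and 3.96 CPM in aged aPD1ab mice. The 4 IgG2a libraries were close to each other, replicate 1 included, and all lay below the young ones. The gene fell by 1.89 ± 0.27 (adjusted p = 0.00513), the lowest adjusted p of a member in that comparison, and was called with each library left out. Cyp8b1, the sterol 12α-hydroxylase gene, was at 0.6036 to 1.604 CPM in young, 0.1635 to 0.4145 CPM in aged IgG2a and 0.16 to 0.3255 CPM in aged aPD1ab mice. Both aged groups lay below the young without overlap, and it fell by 1.79 ± 0.44 (adjusted p = 0.0262) and by 1.96 ± 0.41 (adjusted p = 0.00922) against young mice. Cyp51, the lanosterol demethylase of cholesterol synthesis, was at 44.63 to 67.22 CPM in young, at 66.29, 35.92, 38.22 and 33.64 CPM in aged IgG2a and at 50.73 to 79.13 CPM in aged aPD1ab mice. Replicates 2 to 4 of IgG2a lay below all other libraries, and its log2 fold change against young mice was -0.25 (adjusted p = 0.409), or -0.53 ± 0.15 (adjusted p = 0.0123) without replicate 1. Cyp39a1 and Cyp46a1 were not called.

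Of the retinoic acid hydroxylases, which clear retinoic acid, 2 of 3 passed the filter. Cyp26b1 (mm10 chr6:84571414-84593908, minus strand) was at 38.07, 16.11, 51.39, 80.28 and 67.98 CPM in young mice. It was at 7.558, 85.08, 59.32 and 47.11 CPM in aged IgG2a and at 19.76, 8.381, 9.296 and 11.71 CPM in aged aPD1ab mice. The aPD1ab libraries were low and close together, below all but 1 of the young libraries and all but replicate 1 of the IgG2a libraries. The gene fell by 2.03 ± 0.43 in aPD1ab against young mice (adjusted p = 0.0106), and this call held with each library left out. In aPD1ab against IgG2a mice the log2 fold change was -2.05 ± 0.62 (adjusted p = 0.1114) and, without IgG2a replicate 1, -2.41 ± 0.32 (adjusted p = 0.0065). The proximal tubule markers moved the opposite way in that last comparison. Cyp26a1 stayed under 1 CPM and was not called by edgeR, while voom called it higher in aPD1ab than in young mice (log2 fold change 1.37, adjusted p = 0.03485).

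Of 6 genes of steroid hormone synthesis, Cyp11a1, the side-chain cleavage enzyme, passed the filter at 0 to 1.566 CPM and was not called. Cyp20a1, an orphan whose substrate is not known, had the smallest ratio of highest to lowest library among the named genes, at 17.82 to 22.67 CPM in young, 17.34 to 18.76 CPM in aged IgG2a and 15.25 to 20.28 CPM in aged aPD1ab mice. All 3 groups overlapped, and no comparison called it.

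Single libraries of the aPD1ab group also stood out. Replicate 2 was the highest of its group for 26 of the 50 genes, and its proximal tubule marker sum of 21150 CPM was the highest of all libraries. Replicate 4 was the lowest of the group for 13 genes, among them Cyp4b1, Cyp2e1, Cyp2j13, Cyp4a12a, Cyp2a4 and Cyp2d9, and the highest for 10, among them Cyp2d26, Cyp27b1 and Cyp2c68. In that library Kap, a gene of the proximal tubule, was at 876.9 CPM against 3390, 9396 and 4353 CPM in the other aPD1ab libraries, while the other 11 tubule markers summed to 7026 CPM against 4071, 11750 and 3913 CPM. The relation of Kap to these genes was not tested. In aged IgG2a replicate 1, 32 of the 50 genes exceeded the other IgG2a libraries and 9 lay below them, and 23 lay within the range of the young mice.

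**Figure D5:**
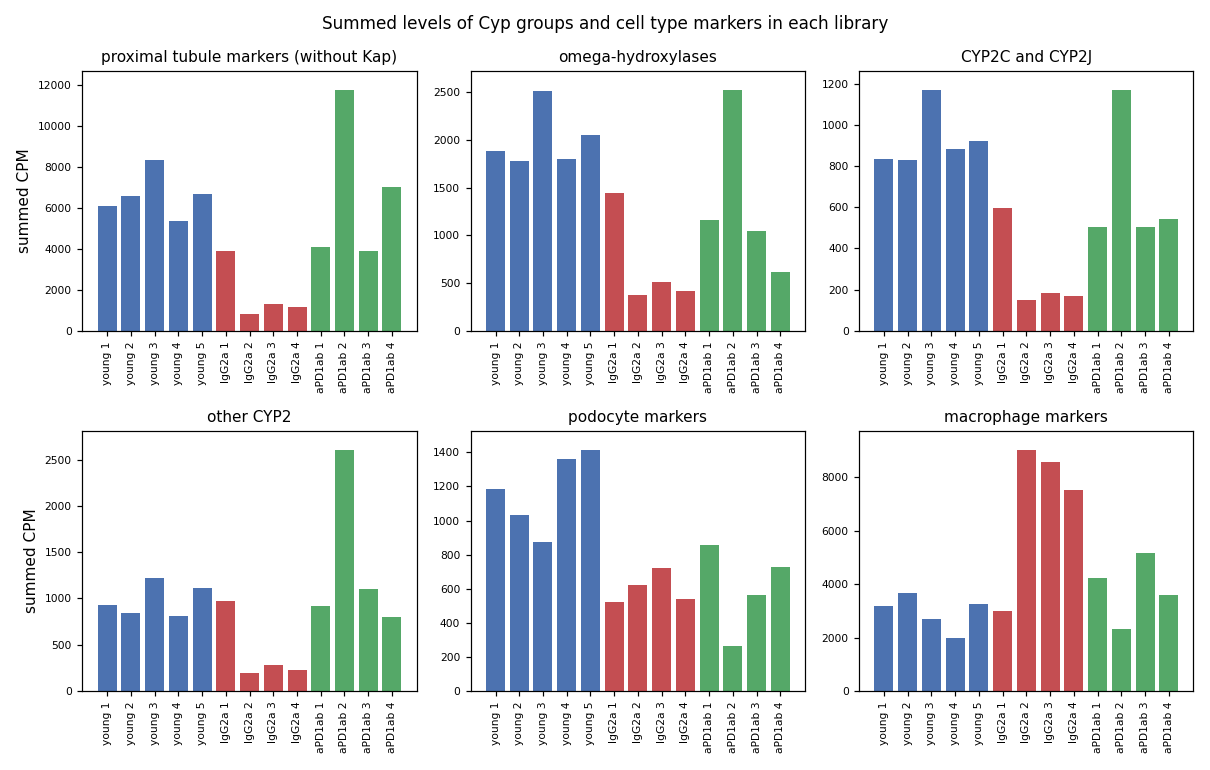
Bars give, for each library, the summed CPM (y axis, from 0) of proximal tubule markers without Kap, of groups of Cyp genes and of other marker lists named in the panel titles, coloured by group. Omega-hydroxylases, CYP2C and CYP2J and other CYP2 genes are low in aged IgG2a replicates 2 to 4, as are the tubule markers at 809.3 to 1285 CPM, and the macrophage markers are high there.

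To place Cyp levels beside the tubule content, each gene was divided by the summed CPM of the 11 proximal tubule markers other than Kap. On this ratio, 24 of the 50 genes were higher in every aged IgG2a library than in every young library (48%) and 0 were lower, against 72.2% and 0.153% of all 16330 genes that passed the same filter. Cyp4b1 per 1000 CPM of tubule markers was 204.7 to 279.6 in young, 187.8 to 284.8 in aged IgG2a and 221.9, 155.4, 191.8 and 57.01 in aged aPD1ab mice. The young and IgG2a ranges of this ratio overlapped, whereas those of its CPM did not. Between aPD1ab and IgG2a mice 0 of the 50 genes were higher and 10 lower (20%) on this ratio without overlap, against 0.0919% and 35.4% of all genes. Against young mice, Cyp2d12, Cyp2a5, Cyp2d22, Cyp2c23 and Cyp2c68 were higher in all aPD1ab libraries, and Cyp2j5 and Cyp8b1 lower, which is 5 and 2 of the 50 genes against 2.95% and 1.05% of all genes. A gene expressed outside the tubule rises on this ratio when the markers fall, so the ratio is a description and was not used for a test.

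By position, 18 of the 100 members lie in a pair of clusters on mouse chromosome 4. The Cyp2j cluster (mm10 chr4:96027534-96664154) holds 8 members, of which 6 were tested and 4 fell in aged IgG2a against young mice, or 5 without replicate 1. The Cyp4 cluster (mm10 chr4:115106323-115647723) holds 10 members, of which 7 were tested and 4 fell, or 6 without replicate 1. Elsewhere 35 members were tested, of which 5 fell and 3 rose, or 14 fell and 4 rose without replicate 1. Of all genes, 8.38% fell in this comparison and 23.5% without replicate 1. Without IgG2a replicate 1, aPD1ab mice were higher than IgG2a mice for 5 of 6 genes of the Cyp2j cluster, 6 of 7 of the Cyp4 cluster and 12 of 33 others, against 17.1% of all genes. Whether the clusters differed from the other positions was not tested.

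Promoter sequence was compared because many members are known as targets of HNF4 and other nuclear receptors. RefSeq promoters (GRCm38.p6) matched 77 of the 100 members, and the 250 bases before the start were searched on both strands. The word TGNACTTTG, which is the core of an HNF4 site, occurred in 16 of 77 members (20.8%) and in 1.4% of all 27025 genes. Of the genes that passed the filter, 36 had a promoter, and 5 of these held the word, namely Cyp26a1, Cyp2c68, Cyp2c69, Cyp2d26 and Cyp8b1. Near copies such as Cyp2c68 and Cyp2c69, with 96.54% identical coding bases, are counted as separate genes here. In aged IgG2a against young mice Cyp2d26 and Cyp8b1 fell, Cyp26a1 was not called, and Cyp2c68 and Cyp2c69 were not tested. The word TATAAA occurred in 29 members (37.7%) and in 14.3% of all genes. The nuclear receptor word AGGTCA repeated after 1 base occurred in 0 members and in 0.0407% of all genes. The word AGTTCA repeated after 5 bases occurred in Cyp26a1, overlapping its HNF4 word, and in 0.0259% of all genes. For Cyp2d26 and Cyp8b1, which both fell in aged IgG2a mice and hold both words, the bases before the start are printed with the words in capitals. Those of Cyp8b1 (chr9:121916306-121916455, minus strand) hold the HNF4 word at -67 and the TATA word at -31. Those of Cyp2d26 (chr15:82794295-82794395, minus strand) end with the HNF4 word at -58, and its TATA word at -31 lies inside the gene as GENCODE draws it and is not printed.
Cyp8b1: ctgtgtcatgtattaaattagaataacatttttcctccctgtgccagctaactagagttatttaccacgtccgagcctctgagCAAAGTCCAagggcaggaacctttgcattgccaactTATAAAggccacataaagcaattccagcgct
Cyp2d26: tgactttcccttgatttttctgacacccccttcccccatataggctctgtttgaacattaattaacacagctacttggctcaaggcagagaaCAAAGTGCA
A match is a run of letters and does not show that a factor binds. Hnf4a itself was at 211.9 to 314.8 CPM in young, at 188.9, 30.94, 60.83 and 41.31 CPM in aged IgG2a and at 182.9, 625, 156.2 and 289 CPM in aged aPD1ab mice. It was lower in each IgG2a library than in each young one and fell by 1.62 on the log2 scale (adjusted p = 0.0422). The proximal tubule markers fell in the same comparison, and the relation of Hnf4a to the Cyp genes was not tested.

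Genes that work with cytochromes P450 were examined as lists. Of 10 genes for electron donors and heme handling, 2 rose and 2 fell in aged IgG2a against young mice. Of all genes, 9.05% rose and 8.38% fell. Por, the reductase that serves all microsomal members, fell by 0.73 (adjusted p = 0.0125) and Cyb5a, cytochrome b5, by 1.00 (adjusted p = 0.0353). Hmox1, which degrades heme, rose by 1.75 (adjusted p = 0.0118), and its values of 133.6, 173.8, 228.2 and 65.55 CPM in IgG2a mice reached into the young range of 37.16 to 66.53 CPM in replicate 4 only. Without IgG2a replicate 1, Por, Cyb5a, Cyb5b, Fdx1, Pgrmc1 and Alas1 fell and Fdx1l and Hmox1 rose, against 23.5% and 22.1% of all genes. In aPD1ab against young mice, Fdx1, Fdx1l and Hmox1 rose and 0 of the 10 fell, against 12.4% and 9.97% of all genes. Fdx1, the ferredoxin of the mitochondrial members, was at 25.4 to 32.61 CPM in aPD1ab mice and at 14.65 to 21.67 CPM in young mice, without overlap.

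Of 6 epoxide and prostanoid genes, Ephx1, Tbxas1 and Ptgs1 rose in aged IgG2a against young mice and Ephx2 fell. Of all genes, 9.05% rose and 8.38% fell. Ephx2, the soluble epoxide hydrolase that breaks down the products of the epoxygenases, was at 141.9 to 191.3 CPM in young mice and at 112.5, 28.12, 41.77 and 37.92 CPM in aged IgG2a mice, and it fell by 1.54 (adjusted p = 0.0233). Without IgG2a replicate 1, Ephx1, Tbxas1 and Ptgs1 again rose and Ephx2 fell, where 22.1% of all genes rose and 23.5% fell. Among the regulators of Cyp genes reported here, Ppara, Hnf4a, Nr1h4 and Kl fell in aged IgG2a against young mice, where 8.38% of all genes fell. Without IgG2a replicate 1 these genes fell again, and so did Vdr (-1.16, adjusted p = 0.000158 by edgeR), against 23.5% of all genes. In aPD1ab against young mice, Ahr, Arnt, Ppara, Vdr and Kl fell, where 9.97% of all genes fell. No share of this list is given, as some of its genes are not reported here. Kl, or klotho, the FGF23 co-receptor upstream of Cyp24a1 and Cyp27b1, was at 751.2 to 1370 CPM in young and at 456.6 to 597.1 CPM in aged aPD1ab mice. Its libraries did not overlap between those groups.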

How the data were processed

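The authors deposited raw counts per gene, which the labels' processing notes trace to HISAT2 and featureCounts on mm10 (GRCm38). Versions, strand setting and the treatment of reads that fit several genes are not given in the sources used here. The labels do not hold the numbers that head the columns, so 13 columns were tied to groups by the animal numbers that the study prints in its principal component plot, and 2 columns without such a number were not used. Libraries were numbered within a group in ascending order of these numbers. Replicates differed by more than sampling noise.

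The main model was edgeR 4.0.16 in R 4.3.3 (filterByExpr, trimmed mean of M values, robust quasi-likelihood test), run separately on the libraries of the groups compared. P-values were adjusted by Benjamini-Hochberg across every gene tested, and genes were called at an adjusted p under 0.05. The steps were tested on simulated data. Alternatives were median-of-ratios size factors, DESeq2 1.42.0, limma 3.58.1 (voom with sample quality weights), no filter on low counts, 1 fit of all 3 groups, calls at over 2-fold and leaving out each library in turn. CPM come from the library totals scaled by the factors of the 3-group fit. Exon lengths and coding sequences are from GENCODE M21 and promoters from RefSeq (GRCm38.p6).

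Named genes were the 20 kept members with the highest mean CPM, the 2 highest of each role group and the 3 with the smallest p per comparison and direction, 32 in all. Cyp4a12b, Cyp4a32, Cyp4f13, Cyp4f14, Cyp2c68, Cyp2d22, Cyp2s1, Cyp27b1 and Cyp2r1 lie outside that rule and were chosen after their values were seen. Members, gene lists and tests were chosen with earlier results of these data known. Motif counts and tubule marker ratios are descriptions, and the ratios of paralogs were tested by exact permutation. Some regulator genes and a motif are not reported here.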

Additional observations from a re-analysis of the deposited data

Results flagged for a closer look

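In 16 of 96 sets of values of a named gene in a group, the highest or lowest library stood apart from the rest of its group by Dixon's ratio. For a single set of normally distributed values, chance alone gives about 1 in 20. The 96 sets come from 32 genes in the same 13 libraries and are not independent, so the 16 cannot be weighed against that rate. Of the 16, 12 concerned aged IgG2a replicate 1. In that library Cyp4b1 was at 1103 CPM against 192 to 282.2 CPM in the other aged IgG2a libraries, Cyp2e1 at 483.9 CPM against 77.11 to 111.3 CPM, and Cyp2j5 at 333.5 CPM against 65.06 to 89.74 CPM. Among the CYP2J genes Cyp2j13 was at 89.34 CPM against 18.86 to 24.82 CPM, Cyp2j11 at 80.82 CPM against 26.59 to 30.04 CPM and Cyp2j6 at 70.39 CPM against 28.69 to 31.43 CPM. Cyp51 was at 66.29 CPM against 33.64 to 38.22 CPM, Cyp4a12a at 51.64 CPM against 6.498 to 14.09 CPM, Cyp2d9 at 61.34 CPM against 7.529 to 14.75 CPM and Cyp2c23 at 17.9 CPM against 2.534 to 4.973 CPM. The same library was low for Cyp27a1, at 65.62 CPM against 140.2 to 152.3 CPM, and for Cyp4f18, at 16.81 CPM against 46.24 to 50.18 CPM.

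Aged aPD1ab replicate 2 stood apart for Cyp4a31, at 224.8 CPM against 39.29 to 54.7 CPM in the other aPD1ab libraries, and for Cyp4a10, at 240.8 CPM against 34.44 to 56.06 CPM. Young replicate 5 was high for Cyp2d12, at 149 CPM against 64.52 to 82.97 CPM. Aged aPD1ab replicate 4 was high for Cyp11a1, at 0.5337 CPM against 0.3968 to 0.4069 CPM, a gene of few counts.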

How the results depend on the processing

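Counts of called members moved by over 1.5 times as follows. In aged IgG2a against young mice, 1 member was higher by over 2-fold, and 25 were lower under voom and 8 without the filter on low counts. Leaving out 1 library gave 1 to 4 higher and 2 to 25 lower, the 25 without IgG2a replicate 1. In aged aPD1ab against IgG2a mice, 11 were higher and 2 lower in the single fit of the 3 groups, 11 and 2 under DESeq2 and 17 and 6 under voom, and leaving out 1 library gave 0 to 23 higher and 0 to 4 lower, above 0 only without IgG2a replicate 1. In aPD1ab against young mice, 3 were lower in the single fit, 8 under voom and 3 by over 2-fold, and leaving out 1 library gave 3 to 7 higher and 2 to 13 lower, the 13 without aPD1ab replicate 2. The cause of these shifts was not tested, except that fewer members can pass where a fold limit is added.

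Log2 fold changes that turned sign were in no case called in the fit by edgeR with all libraries. In IgG2a against young mice these were Cyp26b1 at -0.030 in the single fit, Cyp20a1 at 0.009 and Cyp26a1 at -0.419 under voom. With 1 library left out, Cyp2a5 ran from -0.933 to 0.060, Cyp2c23 from -1.069 to 0.197, Cyp26b1 from -0.354 to 0.394, Cyp26a1 from -0.255 to 0.922 and Cyp11a1 from -1.387 to 0.085. In aPD1ab against IgG2a mice, Cyp39a1 was at 0.060 and Cyp11a1 at 0.563 under voom, and with 1 library left out Cyp39a1 ran from -0.148 to 0.074, Cyp11a1 from -0.527 to 0.967 and Cyp1b1 from -0.043 to 0.707. In aPD1ab against young mice, voom gave -0.609 for Cyp4a10, -0.531 for Cyp2d9, 0.389 for Cyp3a13 and 0.325 for Cyp11a1, and with 1 library left out Cyp2d9 ran from -0.266 to 0.822, Cyp4a31 from -0.969 to 0.220, Cyp3a13 from -0.267 to 0.221, Cyp24a1 from -0.733 to 0.187 and Cyp4a10 from -0.935 to 0.403.

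No paired analysis was possible because each mouse has a number of its own and the groups share none. Genes under 1 CPM, such as Cyp1a1 and Cyp8b1, rest on few counts per library. The assignment of columns to groups could not be checked by a targeted gene.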
